A study of Mus musculus with 12 samples.

Results

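The 54 genes described here drive or mark the cell division cycle and DNA replication. They are the rows of the deposited mouse kidney expression table whose gene symbol is on a fixed list: 54 of the 18803 genes in the table, with 1 row each. By the phase in which each is best known to act they fall into 10 G1 genes, 17 S genes and 27 G2/M genes, and all 54 were expressed enough to test. RNA-seq was made from frozen whole kidney of male C57BL/6J mice 8 weeks old, with 3 libraries in each of 4 groups. The groups were mice with a conditional knockout of Wwp2 in the proximal tubule (PTCKO) after UIR, Wwp2 fl/fl mice without the knockout (WT) after UIR, PTCKO mice after sham surgery and WT mice after sham surgery. UIR is named as the labels give it, and the series is about the passage from acute kidney injury to chronic kidney disease that it induces. No label used here gives the Cre driver or the time between surgery and harvest. Since nothing ties a library to one animal, a p-value covers only how these libraries vary.

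In G1, D-type cyclins activate Cdk4 and Cdk6, which phosphorylate the retinoblastoma protein and free E2F transcription factors, and cyclin E with Cdk2 then carries the cell toward S phase. Replication origins are licensed by Cdc6 and Cdt1, which load the MCM helicase, and DNA synthesis needs the sliding clamp Pcna and enzymes that supply deoxynucleotides. In G2 and M, cyclin B with Cdk1 starts mitosis, and kinases, kinesins, kinetochore proteins and the anaphase-promoting complex part the chromosomes. Most tubule cells of the adult kidney are at rest and can re-enter the cycle after injury, and immune cells that enter the injured organ can also divide.

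Total expected counts were 15495163 to 19645743 per library. Wwp2 had 22.3, 19.3 and 20.5 FPKM in PTCKO UIR, 17.6, 19.2 and 17.9 in WT UIR, 15.6, 16.1 and 17.6 in PTCKO sham and 15.2, 15.7 and 17.1 in WT sham. The targeted gene was thus not lower under the PTCKO label, with a log2 fold change against WT of 0.25 after UIR (SE 0.0728, edgeR adjusted p = 0.037) and -0.03 after sham (SE 0.0733, adjusted p = 0.823). Every genotype direction below therefore rests on the labels alone. Defining markers of the kidney tubule were present in every group. The summed FPKM of 10 proximal tubule markers was 4952 to 9997 in PTCKO UIR and 3206 to 5163 in WT UIR, against 63737 to 76905 in PTCKO sham and 71653 to 74360 in WT sham.

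Promoter windows of 43 of the 54 genes were in the RefSeq table used (build GRCm38.p6, 250 bases before to 50 bases after each start, 47 windows in all). Aurkb, Ccna2, Ccnd1, Ccnd2, Ccne2, Cdc25c, Foxm1, Gmnn, Kif20a, Mcm4 and Wee1 had no entry. Windows were searched on both strands for the NF-Y box CCAAT and for the cell cycle homology region (CHR), spelled TTTGAA with the variant form TTTAAA. They were also searched for the E2F word TTCCCGC, for its variant spelling TTGGCGC, for the further variant TTCGCGC and for the last variant TTGCCGC, and for the Myc-type E-box with the letters CACGTG. Words on opposite strands can overlap. An NF-Y box together with a CHR, the pairing known from genes expressed in G2 and M, was in 77.3% of G2/M windows (17 of 22), 25.0% of S windows (4 of 16), 11.1% of G1 windows (1 of 9) and 10.7% of all 32851 windows. An E2F word was in 13.6% of G2/M windows, 62.5% of S windows, 22.2% of G1 windows and 9.57% of all windows. The E-box was in 22.2% of G1 windows, those of Cdk4 and Cdk6, and in 7.15% of all windows. These are matches of letters and show no binding.

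The 150 bases before the start are shown for 9 genes whose values are described below, 5′ to 3′ on the strand of the gene, with NF-Y boxes, CHRs, E2F words and E-boxes in capitals on either strand. Top2a, Cdk1 and Plk1 are G2/M genes with both an NF-Y box and a CHR here. Kif23 has only an NF-Y box in this stretch. Mcm6 and Mcm5 are S genes with E2F words, which overlap in pairs in Mcm6. Tyms and Tk1 are S genes with no E2F word in the window, and Cdk4 is a G1 gene with 3 E-boxes here.
Top2a (chr11:99024190-99024339, minus strand): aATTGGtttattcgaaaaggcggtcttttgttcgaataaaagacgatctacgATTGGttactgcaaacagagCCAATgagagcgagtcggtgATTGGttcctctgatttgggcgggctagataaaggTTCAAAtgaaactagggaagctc
Cdk1 (chr10:69352913-69353062, minus strand): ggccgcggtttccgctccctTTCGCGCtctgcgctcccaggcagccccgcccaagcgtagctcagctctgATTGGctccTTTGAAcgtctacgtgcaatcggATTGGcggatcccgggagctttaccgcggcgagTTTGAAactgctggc
Plk1 (chr7:122159285-122159434, plus strand): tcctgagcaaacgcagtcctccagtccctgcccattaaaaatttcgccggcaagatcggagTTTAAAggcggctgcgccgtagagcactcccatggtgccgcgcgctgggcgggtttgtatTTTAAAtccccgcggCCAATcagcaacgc
Kif23 (chr9:61946800-61946949, minus strand): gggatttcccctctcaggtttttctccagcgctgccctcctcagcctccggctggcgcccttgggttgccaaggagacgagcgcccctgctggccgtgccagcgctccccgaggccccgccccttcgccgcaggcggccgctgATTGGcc
Mcm6 (chr1:128359706-128359855, minus strand): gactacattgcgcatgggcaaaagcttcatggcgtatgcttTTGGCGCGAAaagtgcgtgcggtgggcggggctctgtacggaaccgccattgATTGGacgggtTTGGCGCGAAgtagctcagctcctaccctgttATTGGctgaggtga
Mcm5 (chr8:75109359-75109508, plus strand): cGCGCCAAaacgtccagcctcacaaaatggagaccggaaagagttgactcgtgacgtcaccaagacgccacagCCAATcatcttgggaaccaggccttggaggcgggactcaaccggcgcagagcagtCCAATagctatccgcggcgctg
Tyms (chr5:30073626-30073775, minus strand): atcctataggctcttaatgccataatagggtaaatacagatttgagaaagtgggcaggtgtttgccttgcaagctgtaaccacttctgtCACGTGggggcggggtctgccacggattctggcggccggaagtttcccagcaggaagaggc
Tk1 (chr11:117826015-117826164, minus strand): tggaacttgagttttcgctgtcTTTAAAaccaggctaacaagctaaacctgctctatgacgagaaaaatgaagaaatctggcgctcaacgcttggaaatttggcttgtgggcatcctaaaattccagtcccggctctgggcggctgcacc
Cdk4 (chr10:127063385-127063534, plus strand): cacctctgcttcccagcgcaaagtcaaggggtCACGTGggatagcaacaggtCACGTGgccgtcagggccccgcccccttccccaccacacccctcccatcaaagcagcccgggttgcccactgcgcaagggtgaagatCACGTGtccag

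**Figure D1:**
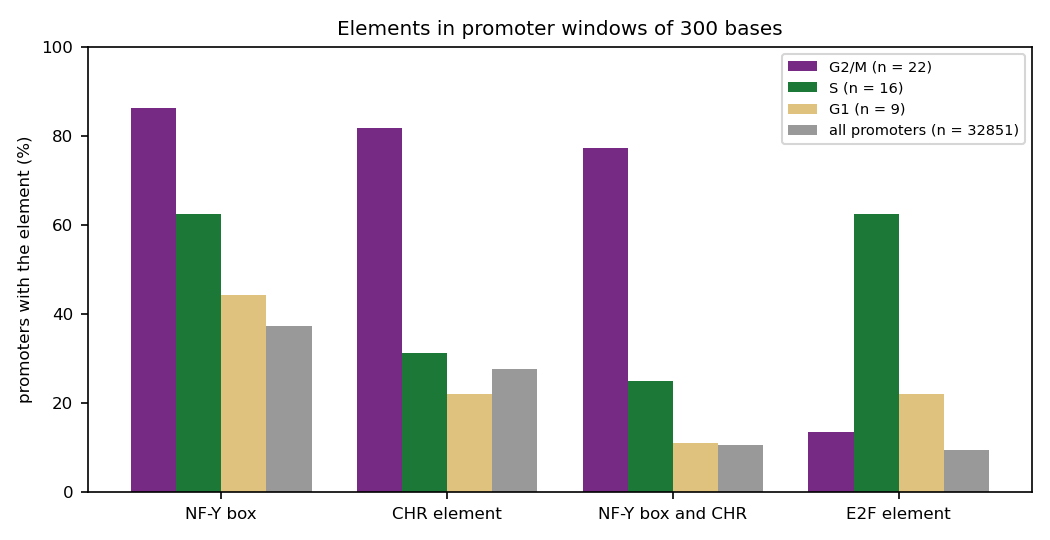
Share of promoter windows (%, vertical axis) that hold an NF-Y box, a CHR, both, or an E2F word, for G2/M, S and G1 genes and for all promoters; n is the number of windows. The pairing of NF-Y box and CHR stands at 77.3% in G2/M windows against 10.7% of all windows, and the E2F word at 62.5% in S windows against 9.57% of all.

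UIR raised most of these genes in both genotypes, and the G2/M genes by the most. In libraries labelled PTCKO, 47 of 54 genes rose against sham and 2 fell (39.0% of all 15322 genes tested were called higher and 34.8% lower by edgeR's quasi-likelihood test at an adjusted p under 0.05). In WT, 49 rose and 4 fell, where 42.1% of all genes were called higher and 36.4% lower. The median log2 fold change of the G2/M genes was 2.28 in PTCKO and 2.57 in WT. It was 1.15 and 1.03 for the S genes, and 0.90 in both genotypes for the G1 genes. Over all genes tested the median was 0.06 in PTCKO and 0.10 in WT.

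**Figure D2:**
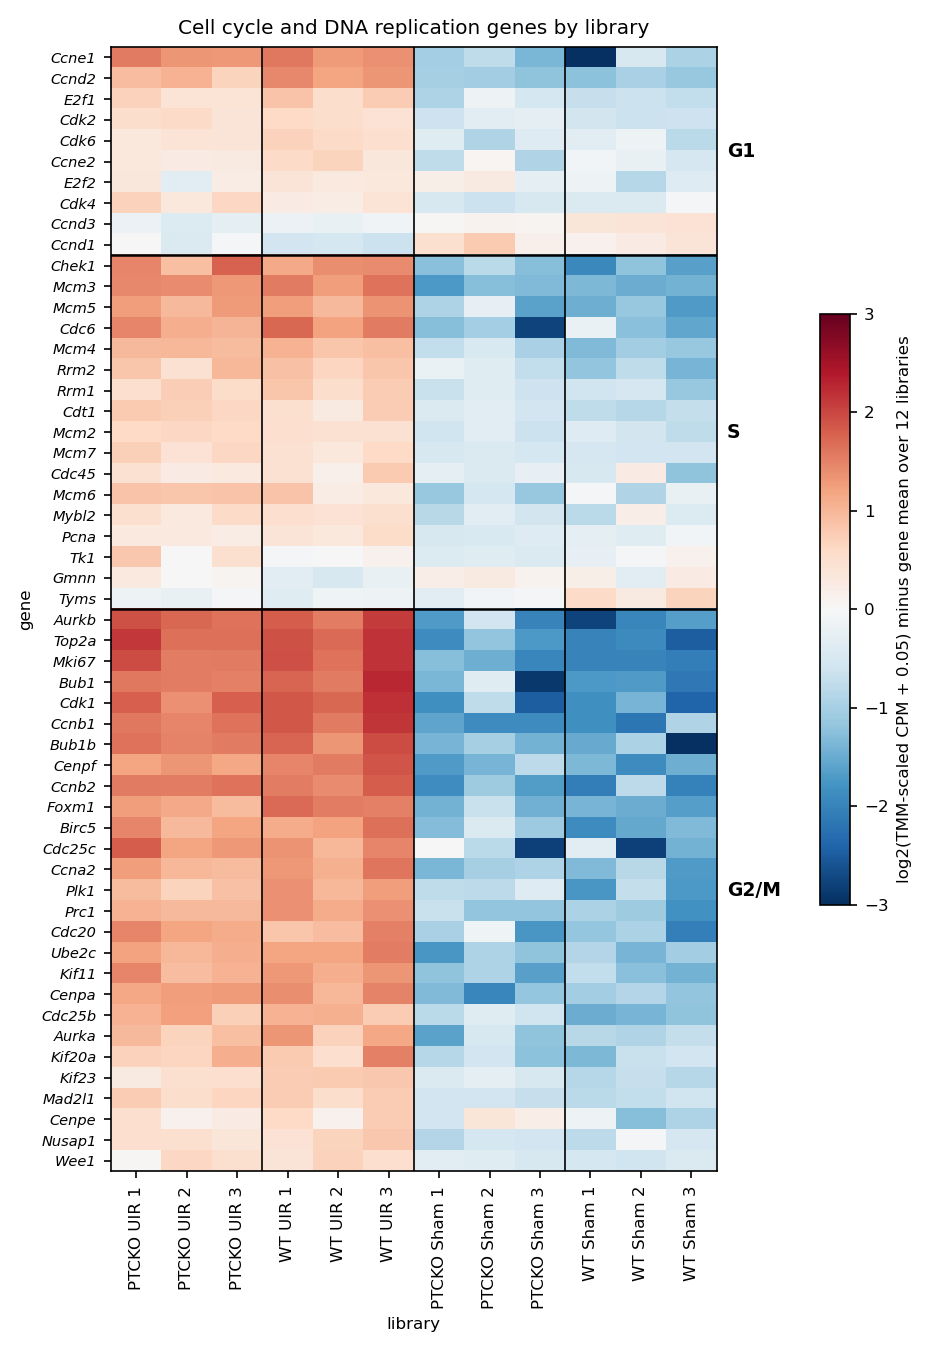
Level of each gene (rows, by phase and by the size of the UIR effect in WT) in each library (columns), as log2 of TMM-scaled CPM plus 0.05 minus the mean of the gene over 12 libraries; colours stop at 3 units either way. G2/M rows are low in sham and high after UIR, while Ccnd1 and Ccnd3 run the other way in both genotypes and Tyms in WT.

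Fold changes come from edgeR with TMM scaling, whose factors were 1.17 to 1.29 in UIR and 0.749 to 0.855 in sham libraries, so FPKM ratios are larger than the fold changes. Without scaling factors the median of all genes was 0.57 in PTCKO and 0.82 in WT, and the medians of the G2/M genes 2.80 and 3.28. By limma on log2(FPKM + 1) with no filter, which understates the change of low genes, the G2/M medians were 1.41 in PTCKO and 1.66 in WT, the S medians 1.22 and 1.35 and the medians of all genes 0.24 and 0.35. In FPKM, 52 of 54 genes had all 3 UIR libraries above all 3 sham libraries in PTCKO, where 62.3% of all genes did, and 52 of 54 in WT, where 67.8% did. In whole tissue, fewer cells of a type and less RNA per cell cannot be told apart. Markers of several cell types and of tubule injury rose beside these genes. The summed FPKM of 10 macrophage and monocyte markers was 3780 to 4951 in PTCKO UIR and 5315 to 8065 in WT UIR, against 82.5 to 108 in PTCKO sham and 86.4 to 108 in WT sham. All 10 of them rose in both genotypes. All 9 T and NK cell markers tested rose too, with sums of 126 to 150 in PTCKO UIR and 113 to 153 in WT UIR, against 5.00 to 6.07 in PTCKO sham and 5.37 to 7.35 in WT sham. All 8 fibroblast markers rose, with sums of 675 to 735 in PTCKO UIR and 863 to 1073 in WT UIR, against 48.3 to 55.8 in PTCKO sham and 36.4 to 55.3 in WT sham. All 6 injured tubule markers rose, with sums of 7149 to 10878 in PTCKO UIR and 6421 to 6974 in WT UIR, against 412 to 499.6 in PTCKO sham and 445 to 459 in WT sham. Of 6 B and plasma cell markers tested, 6 rose in PTCKO and 2 in WT, with sums of 52.4 to 365 in PTCKO UIR and 44.5 to 104 in WT UIR, against 8.63 to 13.4 in PTCKO sham and 18.9 to 32.1 in WT sham. Of 5 neutrophil markers tested, 3 rose and 1 fell in both genotypes. Of 7 endothelial markers, 2 rose and 2 fell in PTCKO, and 5 rose and 1 fell in WT. Of 4 podocyte markers, 1 rose in PTCKO and 4 in WT. Of 4 erythroid precursor markers tested, 0 rose and 2 fell in both genotypes. The part of these markers in the rise of the cell cycle genes was not tested.

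Among the G1 genes, the kinase Cdk4 had the highest level after UIR. Cdk4 was at 169, 132 and 155 FPKM in PTCKO UIR, 129, 127 and 141 in WT UIR, 49.0, 46.7 and 50.4 in PTCKO sham and 47.7, 49.4 and 62.4 in WT sham. Its rise was 1.09 in PTCKO (SE 0.123) and 0.59 in WT (SE 0.122) on the log2 scale, and the UIR and sham libraries did not overlap. The difference of 0.50 (SE 0.173) missed the threshold by edgeR (adjusted p = 0.056) and passed it by DESeq2 (0.53, adjusted p = 0.0297). Cdk4 shares 19.7% of its exon bases with Tspan31 on the opposite strand, and no source used here says whether counting was by strand. Its partner kinase Cdk6 (0.89 in PTCKO and 0.99 in WT) and the S-phase kinase Cdk2 (0.90 and 1.12) also rose.

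The 3 D-type cyclins, which activate Cdk4 and Cdk6, differed in their response. The FPKM of Ccnd2 was 7.58, 8.62 and 6.15 in PTCKO UIR, 11.7, 9.54 and 10.3 in WT UIR, 1.38, 1.37 and 1.22 in PTCKO sham and 1.10, 1.33 and 1.12 in WT sham. Ccnd2 rose by a log2 fold change of 1.96 in PTCKO (SE 0.121) and 2.44 in WT (SE 0.122), and its 6 UIR libraries all lay above its 6 sham libraries. Ccnd3 and Ccnd1 were the abundant D-type cyclins in sham kidney. Ccnd3 had 66.7, 57.0 and 58.5 FPKM in PTCKO UIR, 69.2, 66.5 and 70.5 in WT UIR, 51.0, 53.4 and 55.2 in PTCKO sham and 59.7, 62.0 and 63.5 in WT sham. Ccnd1 was at 44.0, 33.6 and 41.5 FPKM in PTCKO UIR, 31.4, 32.3 and 28.7 in WT UIR, 42.2, 53.8 and 34.2 in PTCKO sham and 31.1, 34.3 and 35.5 in WT sham. For Ccnd1 the UIR and sham libraries overlapped in both genotypes. With TMM scaling Ccnd3 fell in PTCKO (log2 fold change -0.37, adjusted p = 0.000602) and in WT (-0.55, adjusted p = 1.42e-05), and so did Ccnd1 (-0.64, adjusted p = 0.00174, and -0.84, adjusted p = 0.000188). Both falls rest on scaling factors, and Ccnd1 shares 23.4% of its exon bases with LTO1 on the opposite strand. By DESeq2, with its own size factors, Ccnd3 also fell in PTCKO (-0.38, adjusted p = 6.02e-06) and WT (-0.59, adjusted p = 3.34e-13). Ccnd1 did so too (-0.65, adjusted p = 0.000136, and -0.88, adjusted p = 1.39e-07). Without scaling factors, Ccnd3 stood at 0.15 in PTCKO (adjusted p = 0.0716) and 0.16 in WT (adjusted p = 0.0468). Ccnd1 then stood at -0.13 in PTCKO (adjusted p = 0.424) and -0.12 in WT (adjusted p = 0.426).

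The E-type cyclins, partners of Cdk2, were low in sham kidney and rose. The FPKM of Ccne1 was 1.29, 1.12 and 1.05 in PTCKO UIR, 1.39, 1.12 and 1.16 in WT UIR, 0.13, 0.17 and 0.10 in PTCKO sham and 0, 0.19 and 0.12 in WT sham. The log2 fold change of Ccne1 was 2.58 in PTCKO (SE 0.455) and 2.80 in WT (SE 0.469), from expected counts of 0 to 6 per sham library. Ccne2 rose by 0.78 in PTCKO and 0.82 in WT. E2f1 and E2f2 encode activating E2F factors. E2f1 had 4.38, 3.68 and 3.42 FPKM in PTCKO UIR, 5.13, 4.09 and 4.67 in WT UIR, 0.96, 1.70 and 1.31 in PTCKO sham and 1.06, 1.11 and 1.01 in WT sham. It rose by 1.02 in PTCKO (SE 0.180) and 1.42 in WT (SE 0.182), with all 6 UIR libraries above all 6 sham libraries. E2f2 was at 1.80, 1.15 and 1.59 FPKM in PTCKO UIR, 1.96, 1.77 and 1.82 in WT UIR, 1.08, 1.21 and 0.80 in PTCKO sham and 0.77, 0.46 and 0.67 in WT sham. One PTCKO UIR library thus lay below one PTCKO sham library. E2f2 was called in WT (0.77, SE 0.222, adjusted p = 0.00588) and not in PTCKO (0.03, SE 0.216, adjusted p = 0.908), and the difference between genotypes was not called (-0.75, SE 0.310, adjusted p = 0.0998).

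Of the 17 S genes, 14 rose in PTCKO and none fell, and 14 rose and 2 fell in WT. The MCM genes encode the ring that unwinds DNA, and of these Mcm3 and Mcm5 rose the most in both genotypes. The FPKM of Mcm3 was 9.72, 9.69 and 8.52 in PTCKO UIR, 11.2, 8.91 and 11.4 in WT UIR, 0.71, 1.06 and 0.99 in PTCKO sham and 0.87, 0.82 and 0.84 in WT sham. Mcm5 had 6.58, 5.58 and 6.48 FPKM in PTCKO UIR, 7.04, 5.73 and 7.21 in WT UIR, 0.99, 1.64 and 0.63 in PTCKO sham and 0.64, 0.82 and 0.52 in WT sham. Mcm3 rose by a log2 fold change of 2.82 in PTCKO (SE 0.142) and 2.91 in WT (SE 0.142), and Mcm5 by 2.00 (SE 0.243) and 2.64 (SE 0.258). In both genes every UIR library was at least 3 times as high as the highest sham library of its genotype. Mcm7 was the most abundant subunit. Mcm7 was at 26.9, 22.6 and 24.2 FPKM in PTCKO UIR, 23.9, 21.4 and 25.3 in WT UIR, 7.92, 8.69 and 7.94 in PTCKO sham and 7.45, 7.38 and 6.79 in WT sham. Its log2 fold change was 1.07 in PTCKO and 1.01 in WT, so the subunits rose unequally. The 6 subunits of the MCM ring, which stand in equal numbers in the protein complex, had mean FPKM levels that spanned 3.96-fold in PTCKO UIR and 3.53-fold in WT UIR, against 8.89-fold in PTCKO sham and 10.9-fold in WT sham. Mcm7 was the highest in all 4 groups, and Mcm5 was the lowest in all but PTCKO sham, where Mcm3 was.

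The loading factors rose as well, Cdt1 by a log2 fold change of 1.15 in PTCKO and 1.30 in WT and Cdc6 by 2.90 and 2.50, where Cdc6 had 1 to 9 expected counts per sham library. Gmnn encodes geminin, which blocks Cdt1. The FPKM of Gmnn was 11.5, 9.62 and 9.60 in PTCKO UIR, 7.95, 7.01 and 8.25 in WT UIR, 7.38, 8.08 and 7.11 in PTCKO sham and 6.76, 4.84 and 6.91 in WT sham. In FPKM its UIR libraries lay above its sham libraries in both genotypes. With TMM scaling its log2 fold change was -0.07 in PTCKO (adjusted p = 0.693) and -0.39 in WT (adjusted p = 0.0404), and without scaling it was 0.44 in PTCKO (adjusted p = 0.0168) and 0.32 in WT (adjusted p = 0.0671). Cdc45 encodes a factor that completes the active helicase. Cdc45 had 2.39, 2.10 and 2.06 FPKM in PTCKO UIR, 2.53, 2.01 and 3.08 in WT UIR, 0.96, 0.90 and 1.02 in PTCKO sham and 0.80, 1.34 and 0.45 in WT sham. Its UIR libraries lay above its sham libraries in both genotypes. Cdc45 missed the threshold in PTCKO (0.66, SE 0.284, adjusted p = 0.0502) and rose in WT (0.86, SE 0.284, adjusted p = 0.0138).

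Pcna, the sliding clamp of the replication fork, was the most abundant S gene. Pcna was at 66.3, 68.4 and 61.0 FPKM in PTCKO UIR, 75.7, 70.9 and 81.4 in WT UIR, 26.4, 28.0 and 29.0 in PTCKO sham and 28.3, 27.5 and 31.8 in WT sham. It rose by a log2 fold change of 0.71 in PTCKO (SE 0.0861) and 0.67 in WT (SE 0.0855). Chek1 encodes a checkpoint kinase that guards replication forks. The FPKM of Chek1 was 1.35, 0.93 and 1.62 in PTCKO UIR, 1.14, 1.36 and 1.34 in WT UIR, 0.13, 0.19 and 0.13 in PTCKO sham and 0.07, 0.13 and 0.09 in WT sham. The UIR and sham libraries of both genes were clear of each other. Chek1 rose by 2.59 in PTCKO (SE 0.300) and by 3.01 in WT (SE 0.323), the largest rise of the S genes in WT. Mybl2, a transcription factor of the S to G2 passage, rose by 1.03 in PTCKO and 0.77 in WT.

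The 4 genes of deoxynucleotide supply did not move alike. Rrm1 and Rrm2, the subunits of ribonucleotide reductase, rose by log2 fold changes of 1.15 and 1.21 in PTCKO and 1.43 and 1.90 in WT. Tyms, which makes thymidylate from deoxyuridylate, and Tk1, which salvages thymidine, depended on genotype and on scaling. Tyms had 8.37, 8.34 and 8.74 FPKM in PTCKO UIR, 7.78, 9.09 and 8.71 in WT UIR, 5.19, 6.31 and 6.31 in PTCKO sham and 9.00, 7.47 and 9.29 in WT sham. Tk1 was at 20.7, 12.6 and 16.0 FPKM in PTCKO UIR, 12.8, 11.9 and 13.7 in WT UIR, 6.13, 6.71 and 5.89 in PTCKO sham and 7.04, 7.89 and 8.27 in WT sham. In Tyms the 3 PTCKO sham libraries stood below the other 9, and in Tk1 the UIR libraries lay above the sham libraries of their genotype. With TMM scaling Tyms was not called in PTCKO (0.01, SE 0.113, adjusted p = 0.961) and fell in WT (-0.72, SE 0.111, adjusted p = 4.30e-05). Without scaling Tyms stood at 0.52 in PTCKO (adjusted p = 0.00056) and -0.01 in WT (adjusted p = 0.93). Tk1 rose in PTCKO (0.88, SE 0.173, adjusted p = 0.000459) and was not called in WT (0.07, SE 0.172, adjusted p = 0.708), where it was called without scaling (0.78, adjusted p = 0.000528).

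**Figure D3:**
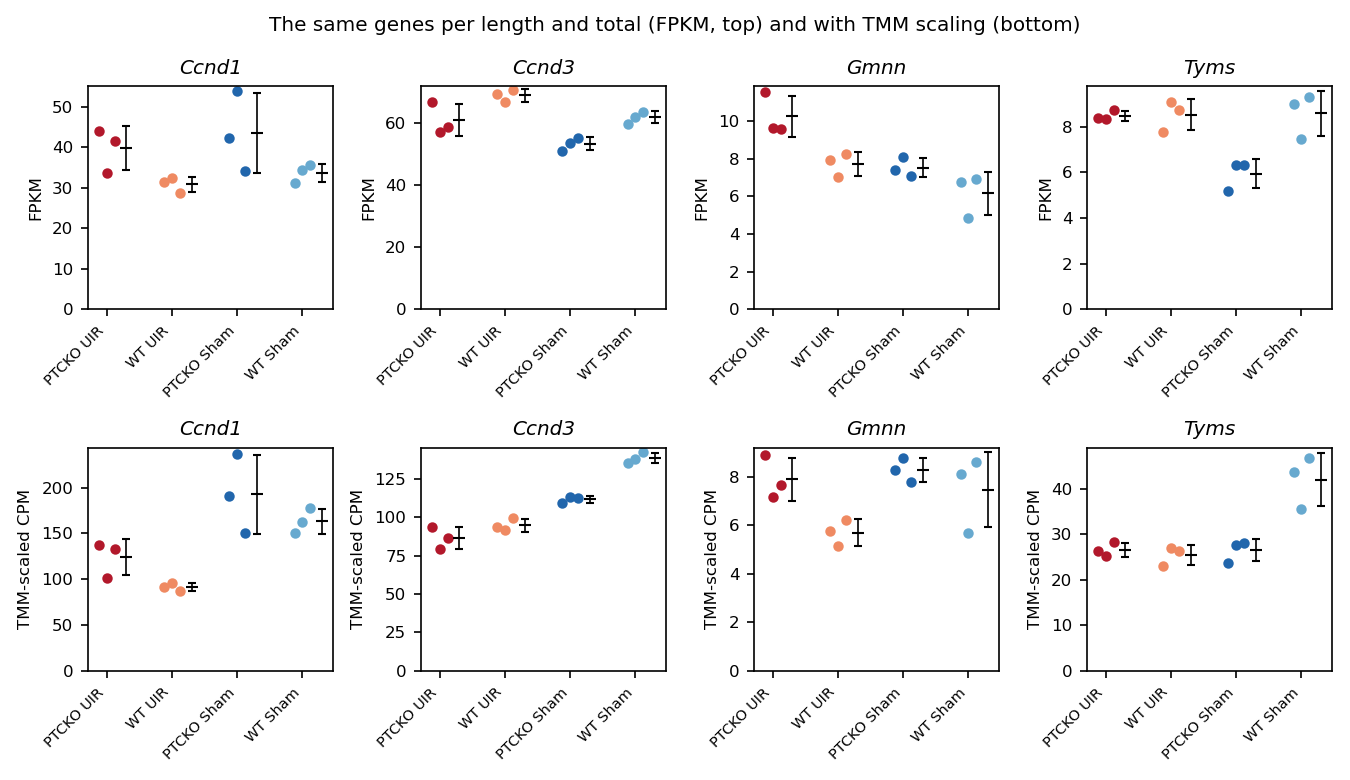
Ccnd1, Ccnd3, Gmnn and Tyms by library in FPKM (top) and in TMM-scaled CPM (bottom); points are libraries, and bars at the right of each group are the mean and SD of 3 libraries. In FPKM the UIR groups of Ccnd3 and Gmnn stand above their sham groups, and with TMM scaling the UIR groups of Ccnd3 stand below their sham groups and those of Gmnn overlap them.

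Of the 27 G2/M genes, 26 rose in PTCKO and 27 in WT, and none fell in either genotype. In sham kidney most of them were near the limit of detection: 21 of 27 had a mean under 1 FPKM in PTCKO sham and 22 in WT sham, against 4 in PTCKO UIR and 4 in WT UIR. The 3 largest log2 fold changes in WT were those of Aurkb, Top2a and Mki67. The FPKM of Aurkb was 3.20, 2.93 and 2.60 in PTCKO UIR, 3.28, 2.64 and 3.75 in WT UIR, 0.16, 0.38 and 0.13 in PTCKO sham and 0.06, 0.13 and 0.15 in WT sham. Top2a had 6.09, 4.56 and 4.29 FPKM in PTCKO UIR, 5.57, 4.77 and 6.42 in WT UIR, 0.26, 0.43 and 0.30 in PTCKO sham and 0.22, 0.24 and 0.15 in WT sham. Mki67 was at 4.21, 3.24 and 3.09 FPKM in PTCKO UIR, 4.41, 3.51 and 4.94 in WT UIR, 0.30, 0.28 and 0.19 in PTCKO sham and 0.17, 0.17 and 0.15 in WT sham. All 6 UIR libraries of each lay far above all 6 sham libraries. Aurkb, the kinase of the chromosomal passenger complex, rose by 3.15 in PTCKO (SE 0.325) and 4.09 in WT (SE 0.364). Top2a, the topoisomerase that untangles sister chromatids, rose by 3.42 (SE 0.215) and 4.08 (SE 0.230). Mki67, whose protein Ki-67 is the common stain for dividing cells, rose by 3.26 (SE 0.195) and 3.98 (SE 0.206).

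The mitotic cyclin and kinase genes moved with them. Cdk1, the kinase that starts mitosis, rose by a log2 fold change of 3.25 in PTCKO (SE 0.323) and 3.84 in WT (SE 0.335), its partners Ccnb1 by 3.50 and 3.55 and Ccnb2 by 3.16 and 3.18, and Ccna2 by 2.17 and 2.60. Ccnb1 and Ccnb2, like Ccnd3, Pcna and Tyms, have annotated pseudogenes whose reads could be shared with them. The transcription factor Foxm1, which drives many G2/M genes, rose by 2.28 in PTCKO and 3.14 in WT. Spindle checkpoint genes spanned a wide range in WT, with Bub1 at 3.96, Bub1b at 3.40 and Mad2l1 at 1.41, and in PTCKO these were at 2.89, 2.87 and 1.27. Cdc20, which activates the anaphase-promoting complex, rose by 2.09 in PTCKO and 2.48 in WT. Of the kinesins, Kif11 rose by 2.41 and 2.39 and Kif20a by 1.71 and 1.84, though Kif20a shares 29.3% of its exon bases with Cdc23 on the opposite strand.

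The 3 most abundant G2/M genes after UIR were the inhibitory kinase Wee1, the phosphatase Cdc25b that counters it, and Ube2c, the ubiquitin-conjugating enzyme of the anaphase-promoting complex. The FPKM of Wee1 was 7.94, 12.3 and 10.4 in PTCKO UIR, 10.6, 13.0 and 11.2 in WT UIR, 4.26, 4.22 and 3.95 in PTCKO sham and 3.44, 3.35 and 3.55 in WT sham. Cdc25b had 10.5, 12.3 and 7.96 FPKM in PTCKO UIR, 11.1, 11.1 and 8.86 in WT UIR, 1.95, 2.76 and 2.35 in PTCKO sham and 1.15, 1.26 and 1.36 in WT sham. Ube2c was at 9.94, 8.93 and 8.97 FPKM in PTCKO UIR, 10.5, 10.4 and 13.0 in WT UIR, 0.87, 1.55 and 1.26 in PTCKO sham and 1.49, 1.04 and 1.28 in WT sham. In all 3 genes the UIR libraries stood clear of the sham libraries. Wee1 had the smallest rise of the G2/M genes in WT, 1.04 (SE 0.137), and rose by 0.78 in PTCKO (SE 0.136). Ube2c rose by 2.39 in PTCKO and 2.44 in WT, and it shares 22.8% of its exon bases with Tnnc2 on the opposite strand. Cenpe encodes a centromere kinesin. The FPKM of Cenpe was 0.80, 0.64 and 0.65 in PTCKO UIR, 0.92, 0.65 and 0.99 in WT UIR, 0.26, 0.52 and 0.45 in PTCKO sham and 0.33, 0.15 and 0.18 in WT sham. All its UIR libraries lay above the sham libraries, yet it was the G2/M gene not called in PTCKO (0.24, SE 0.287, adjusted p = 0.456). It rose in WT (1.24, SE 0.304, adjusted p = 0.00211), and the difference between genotypes was not called (-0.99, SE 0.420, adjusted p = 0.106).

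**Figure D4:**
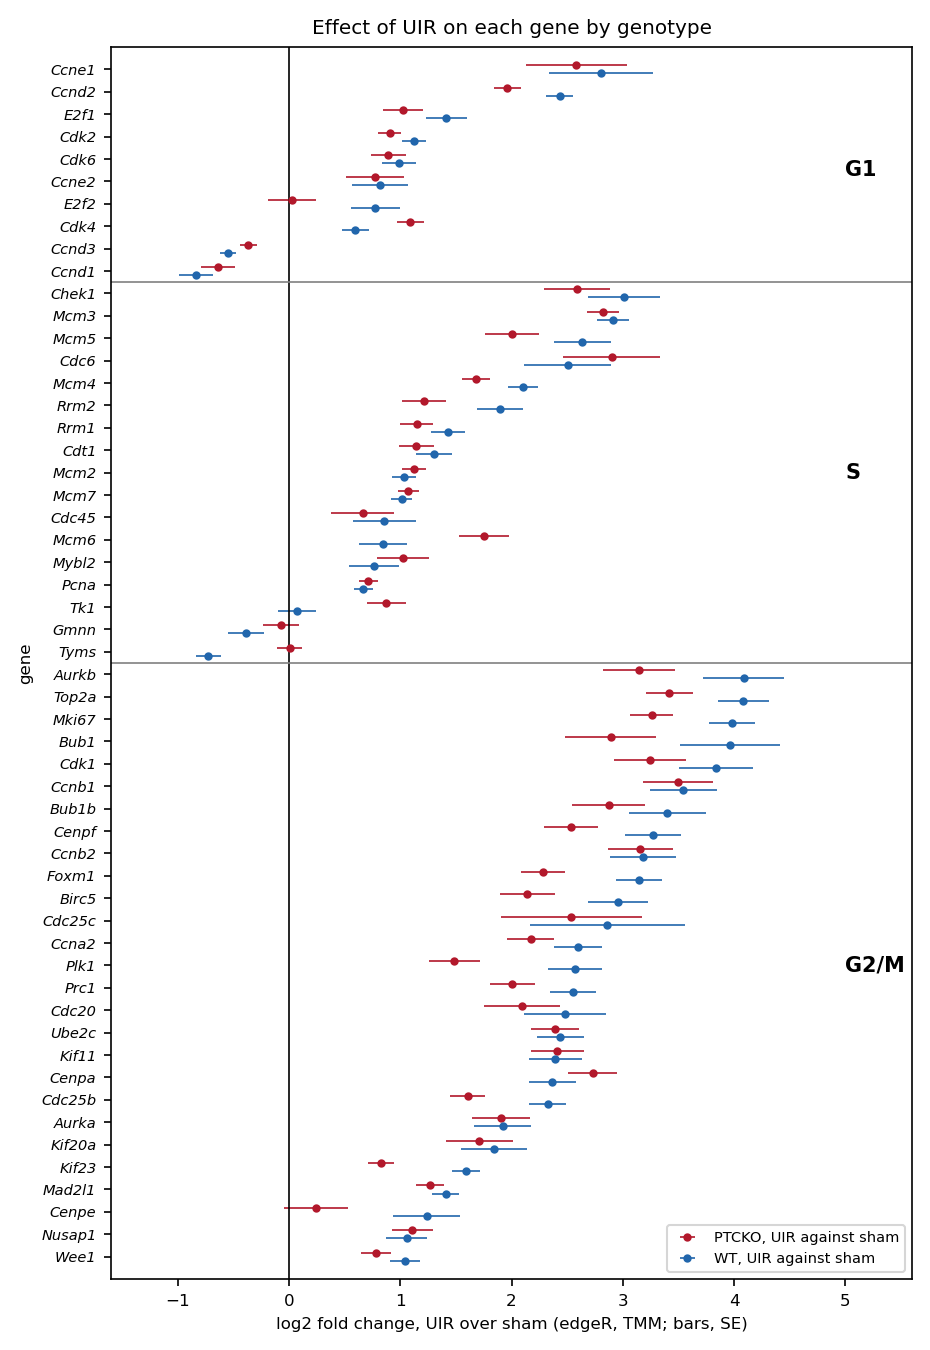
Log2 fold change of UIR over sham for each gene in PTCKO (red) and WT (blue), with bars of 1 SE, in the order of the WT value within each phase. G2/M genes reach 3.50 in PTCKO and 4.09 in WT, and Ccnd1 and Ccnd3 lie left of 0 in both.

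A further 175 genes of the same pathways were listed by role. In PTCKO 112 of them rose after UIR and 30 fell, where 39.0% of all genes were called higher and 34.8% lower. In WT 114 rose and 27 fell, where 42.1% of all genes were called higher and 36.4% lower. Genes of mitotic kinesins, spindle and cytokinesis rose in 27 of 32 cases in PTCKO (median log2 fold change 2.44) and 28 of 32 in WT (3.04). The spindle assembly factor Tpx2 was at 2.71 (SE 0.212) and 3.48 (SE 0.227). In the same order of genotypes, genes of the centromere and kinetochore rose in 21 and 23 of 31 cases (0.90 and 1.15), such as Cenpi at 3.70 and 3.76. Genes of origin recognition and helicase loading rose in 11 and 11 of 18 cases (0.81 and 0.87), such as Gins2 at 2.12 and 2.50, and DNA polymerases and fork factors in 25 and 23 of 37 (0.73 and 0.51), such as Uhrf1 at 3.88 and 3.61 and the ligase Lig1 at 2.16 and 2.33. Condensin and cohesin genes rose in 10 and 13 of 18 cases (0.24 and 0.50), with the condensin subunit Ncapg at 3.73 and 4.28, and spindle checkpoint and anaphase-promoting complex genes in 13 and 10 of 22 (0.23 and 0.16). Of the 17 genes of the Rb, E2F and DREAM machinery, 5 rose and 7 fell in PTCKO and 6 rose and 6 fell in WT (0.04 and 0.12), and the repressor E2f8 was at 2.52 and 4.28.

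With TMM scaling some genes of these lists fell, and other scalings were not summarised for them. Cks2, a small subunit that binds Cdk1, fell by 1.16 in PTCKO and 1.89 in WT on the log2 scale, and Spc25 of the kinetochore by 0.95 and 1.87. Lin52, a subunit of the DREAM complex that represses cell cycle genes in resting cells, fell by 1.29 in PTCKO and 1.22 in WT.

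After UIR, 2 of the 54 genes differed between libraries labelled PTCKO and WT, and both were lower in PTCKO. Among all genes 4.50% were called lower and 9.30% higher, and by edgeR none of the 54 was higher (DESeq2 called Ccnd1 and Gmnn higher). By edgeR 8 of 54 had an unadjusted p under 0.05, a share that was not summarised over all genes. Ccnd2 was lower in PTCKO UIR than in WT UIR (log2 fold change -0.43, SE 0.107, adjusted p = 0.0189), with 6.15 to 8.62 FPKM in PTCKO and 9.54 to 11.7 in WT. Its call held under every other scaling, filter, tool and fit run on all libraries compared (adjusted p from 0.0072 by DESeq2 to 0.0495 by edgeR on only these groups). It was lost without WT UIR 1 (-0.35, adjusted p = 0.0953), WT UIR 3 (-0.41, adjusted p = 0.054) or PTCKO UIR 3 (-0.32, adjusted p = 0.0969). Kif23 encodes a kinesin needed for cytokinesis. Kif23 had 2.95, 3.55 and 3.36 FPKM in PTCKO UIR, 4.42, 4.49 and 4.49 in WT UIR, 1.22, 1.40 and 1.26 in PTCKO sham and 0.88, 0.97 and 0.82 in WT sham. The PTCKO UIR and WT UIR libraries of both genes did not overlap. Kif23 was lower in PTCKO UIR (-0.36, SE 0.110, adjusted p = 0.0452). The Kif23 call was lost in most alternatives, with DESeq2 at an adjusted p of 0.0613 and on leaving out any UIR library at 0.0542 to 0.194. It held in edgeR without scaling factors (adjusted p = 0.0267) and in all 4 limma settings (adjusted p 0.0107 to 0.0322). The median log2 fold change was -0.19 for G2/M genes, 0.04 for S genes and -0.17 for G1 genes, beside 0.0049 over all genes.

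In FPKM, 13 of 54 genes had all PTCKO UIR libraries below all WT UIR libraries, 9 of them G2/M genes, where 17.9% of all genes did. One library stood apart among the 6 after UIR: in TMM-scaled CPM, WT UIR 3 was the highest in 19 of the 27 G2/M genes. Its summed FPKM over the 27 was 137, against 104 to 126 in the other 5. On leaving out each library the G2/M median lay between -0.28 (without WT UIR 2) and -0.08 (without WT UIR 3). Without PTCKO UIR 2, which had the lowest TMM-scaled CPM in 10 G2/M genes, 4 genes were called higher in PTCKO (Ccnd1 0.59, Gmnn 0.56, Tk1 0.65 and Cdk4 0.39). Markers of other cells also differed between the genotypes after UIR. All 10 proximal tubule markers were higher in PTCKO UIR than in WT UIR and all 7 endothelial markers lower (summed FPKM 172 to 201 in PTCKO UIR and 250.3 to 278 in WT UIR), while 2 of 10 macrophage and monocyte markers and 1 of 8 fibroblast markers were lower and 3 of 6 B and plasma cell markers tested were higher. Injured tubule markers were higher in 2 of 6 cases and erythroid precursor markers in 1 of 4 tested, and podocyte markers were lower in 2 of 4. The part of these markers in the values of Ccnd2 and Kif23 was not tested.

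After sham, 3 genes differed between the genotypes (5.23% of all genes were called higher and 5.50% lower). Cdc25b was higher in PTCKO sham, with 1.95 to 2.76 FPKM against 1.15 to 1.36 in WT sham (log2 fold change 0.77, SE 0.180, adjusted p = 0.0237). Ccnd3 was lower in PTCKO sham (-0.31, SE 0.0750, adjusted p = 0.0255). Tyms was lower in PTCKO sham, with 5.19 to 6.31 FPKM against 7.47 to 9.29 in WT sham (-0.67, SE 0.113, adjusted p = 0.00829). None of the 3 genes overlapped between the genotypes. The Tyms call held on leaving out each library in turn and under every other setting run, whereas that of Cdc25b was lost without PTCKO sham 2 or 3 or WT sham 1 or 3 (adjusted p up to 0.0764). That of Ccnd3 was lost without any PTCKO sham library or without WT sham 1 or 3 (up to 0.0835), without scaling factors (-0.18, adjusted p = 0.098) and in all limma settings. The median was 0.32 for G2/M genes, 0.04 for S genes and 0.11 for G1 genes, beside -0.004 over all genes. In TMM-scaled CPM, PTCKO sham 2 was the highest of the 6 sham libraries in 12 of 27 G2/M genes and in 25 of all 54. On leaving out each library the G2/M median lay between 0.11 (without PTCKO sham 2) and 0.44 (without PTCKO sham 3). By limma on log2(FPKM + 1), which understates the change of low genes, the G2/M median was 0.11 with all libraries, beside 0.07 over all genes. It was 0.27 on log2(FPKM + 0.1) (all genes 0.10) and 0.45 without scaling factors in edgeR (all genes 0.12). In FPKM, 15 of 54 genes had all PTCKO sham libraries above all WT sham libraries, where 26.8% of all genes did, and 3 of 54 had all of them below, where 9.65% of all genes did. Markers of other cells differed after sham too: 2 of 10 macrophage and monocyte markers were higher in PTCKO sham and 1 lower (summed FPKM 82.5 to 108 in PTCKO sham and 86.4 to 108 in WT sham). Of the 7 endothelial markers 1 was higher (sums 106 to 109.9 in PTCKO sham and 97.5 to 113 in WT sham). Of the 6 injured tubule markers 1 was higher (sums 412 to 499.6 in PTCKO sham and 445 to 459 in WT sham), Havcr1, the kidney injury molecule, at a log2 fold change of 3.27. Of the 10 proximal tubule markers 0 were called by edgeR, and 0 had an unadjusted p under 0.05. The part of these markers in the values of Cdc25b, Ccnd3 and Tyms was not tested.

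Among the further 175 genes, 3 of the 32 on the list of mitotic kinesins, spindle and cytokinesis were higher in PTCKO sham than in WT sham: Ect2, Kif20b and Spag5. Ect2, which activates RhoA for the cleavage furrow, was at 1.35, 1.41 and 1.01 FPKM in PTCKO sham and 0.45, 0.52 and 0.34 in WT sham (log2 fold change 1.39, SE 0.197, adjusted p = 0.0037). Spag5, a spindle protein, had 0.18, 1.42 and 0.42 FPKM in PTCKO sham and 0.21, 0.13 and 0.10 in WT sham (2.10, SE 0.611, adjusted p = 0.0461), so PTCKO sham 2 was far above the others and the groups overlapped. The Rb, E2F and DREAM list had 4 of 17 genes higher in PTCKO sham, and the condensin and cohesin list 3 of 18. In all, 10 of the 175 were higher and 5 lower after sham, where 5.23% of all genes were called higher and 5.50% lower. After UIR 3 of the 175 were higher and 0 lower, where 9.30% of all genes were called higher and 4.50% lower. By edgeR 12 of the 175 had an unadjusted p under 0.05 after UIR, a share that was not summarised over all genes. Other tools were not summarised for this list.

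The UIR effect itself differed between the genotypes in 5 of the 54 genes, tested as an interaction (14.4% of all genes had a higher log2 effect in PTCKO and 7.08% a lower one). Kif23 rose less in PTCKO, by 0.83 against 1.59 in WT (difference -0.77, SE 0.173, adjusted p = 0.0108), and its call held on leaving out each library. Cdc25b rose by 1.61 in PTCKO against 2.33 in WT (-0.72, SE 0.229, adjusted p = 0.0414). Plk1 encodes the polo-like kinase of mitosis. Plk1 was at 3.46, 2.97 and 3.23 FPKM in PTCKO UIR, 4.98, 3.79 and 4.43 in WT UIR, 0.72, 0.73 and 0.96 in PTCKO sham and 0.33, 0.70 and 0.33 in WT sham. It rose by 1.48 in PTCKO against 2.57 in WT (-1.09, SE 0.345, adjusted p = 0.0417). In these 3 genes the PTCKO sham libraries stood above all WT sham libraries, and in Kif23 and Plk1 the PTCKO UIR libraries stood below all WT UIR libraries. The effect in PTCKO was the higher one for Tyms (0.01 against -0.72 in WT, difference 0.73, SE 0.158, adjusted p = 0.00908) and for Tk1 (0.88 against 0.07 in WT, 0.80, SE 0.244, adjusted p = 0.0349), the pair of thymidylate genes. The call of Tyms held on leaving out each library. With TMM scaling edgeR did not call Mcm6. It was called by DESeq2 (difference 0.94, adjusted p = 0.0238) and with DESeq2 size factors in edgeR (0.94, adjusted p = 0.0479). The call of Cdc25b held only without PTCKO UIR 2, WT UIR 3 or PTCKO sham 1 (otherwise adjusted p up to 0.0985), that of Plk1 only without WT UIR 2 or WT sham 2 (up to 0.106), and that of Tk1 only without PTCKO UIR 2, WT UIR 3 or WT sham 1 (up to 0.0868).

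The interaction estimate was below 0 in 24 of 27 G2/M genes (median -0.53), 8 of 17 S genes (0.05) and 7 of 10 G1 genes (-0.16), with a median of -0.0015 over all genes. On leaving out each library the G2/M median lay between -0.64 and -0.32, with the values nearest 0 without WT sham 3 or PTCKO sham 2. Without scaling factors it was -0.72, where the median of all genes was -0.20. It was nearer 0 by limma, at -0.24 on log2(FPKM + 1) (all genes -0.14) and -0.34 on log2(TPM + 1) (all genes -0.28). Adding 1 understates the change of low genes, and on log2(FPKM + 0.1) the G2/M median was -0.46 (all genes -0.17). Among the further 175 genes, 9 had a higher and 9 a lower log2 effect in PTCKO (of all genes, 14.4% were called higher and 7.08% lower). All 3 subunits of the RNase H2 enzyme, which removes ribonucleotides from DNA, were among the higher ones (difference for Rnaseh2a 0.50, Rnaseh2b 1.05 and Rnaseh2c 0.85, adjusted p = 0.0414, 0.00297 and 0.0132), and Ect2 (-1.63, adjusted p = 0.00297) and Kif20b (-1.41, adjusted p = 0.00165) were among the lower. Kif20b fell in both genotypes, by 2.51 in PTCKO and 1.10 in WT on the log2 scale, so its fall was the larger one in PTCKO. Ect2 stood at -0.57 in PTCKO (adjusted p = 0.0104) and 1.06 in WT (adjusted p = 0.000205). Rnaseh2b stood at -0.29 in PTCKO against -1.34 in WT. These UIR effects use TMM scaling, and other scalings were not summarised for this list. Without scaling factors the median UIR effect of all genes in PTCKO was 0.57 rather than 0.06. Proximal tubule markers fell after UIR in both genotypes, and their log2 effect was higher in PTCKO in 7 of 10 cases. Endothelial markers had a lower one in 3 of 7 cases and fibroblast markers in 2 of 8. Macrophage and monocyte markers had a lower one in 1 of 10 cases. B and plasma cell markers had a higher one in 1 of 6 tested and erythroid precursor markers in 1 of 4 tested. The part of these markers in the interaction was not tested.

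**Figure D5:**
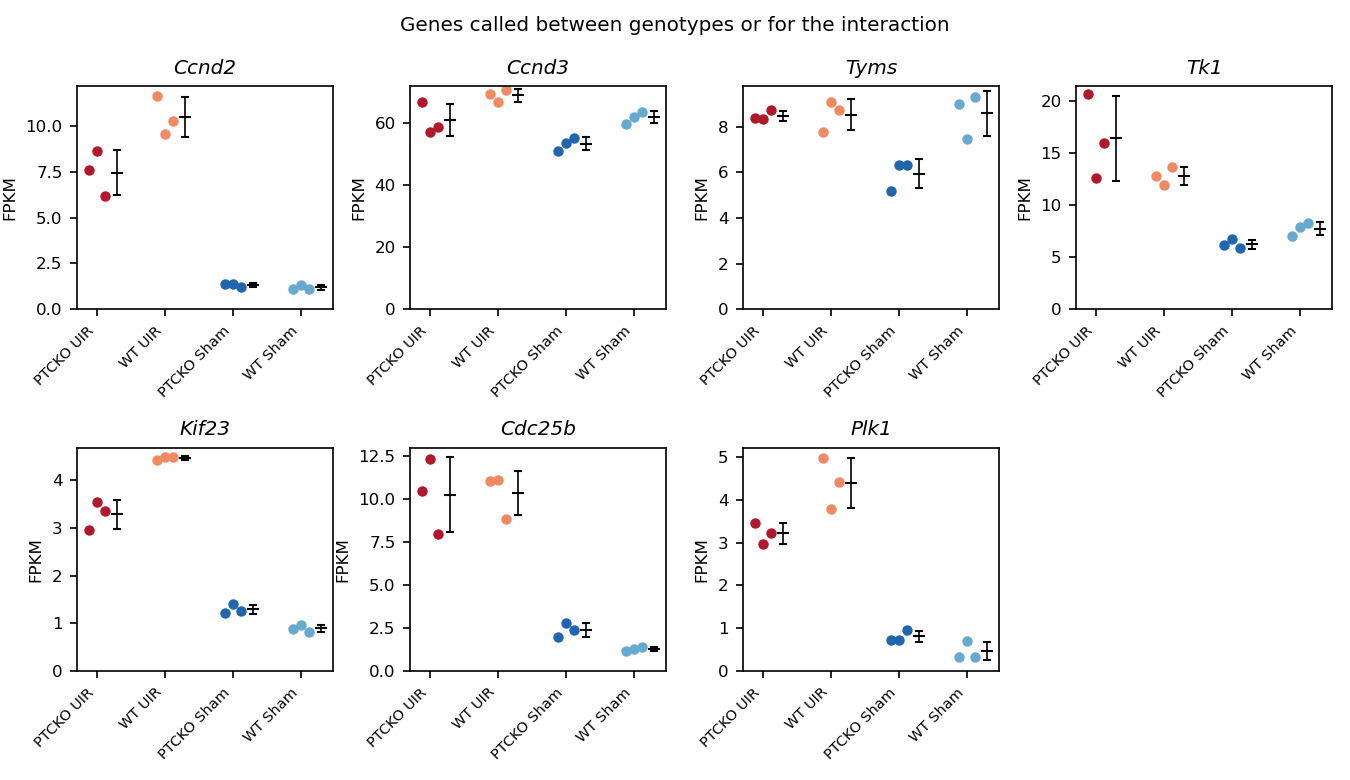
FPKM by library of the 7 genes called between genotypes or for the interaction; points are libraries, and bars at the right of each group are the mean and SD of 3 libraries. Ccnd2 and Kif23 stand lower in PTCKO UIR than in WT UIR, Tyms and Ccnd3 lower and Cdc25b higher in PTCKO sham than in WT sham.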

How the data were processed

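RNA-seq of 12 mouse kidney libraries was analysed, 3 in each of 4 groups named by the labels. For each gene and library the authors deposited, per the file headers, TPM, FPKM and RSEM's expected count. Bowtie2, RSEM, DESeq2 and the build GRCm38.p6 are named in the submitters' processing notes, without versions, and no source used here says whether counting was by strand. Between 30.8% and 35.4% of the expected counts per library were not whole (tolerance 1e-06), and all were rounded. The group averages in the authors' table were not used, and no column was without a sample.

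Counts were tested with edgeR 4.0.16 in R 4.3.3 by the quasi-likelihood test, after filterByExpr (15322 of 18803 genes) and TMM scaling, in 1 fit over all 12 libraries with 8 residual degrees of freedom. P-values were adjusted by Benjamini and Hochberg over all 15322 genes, and a gene called at an adjusted p under 0.05 is said to rise or fall. The interaction is the UIR effect in PTCKO minus that in WT. No pair of libraries held identical counts. Levels are given in FPKM, which accounts for gene length.

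The members and lists were chosen with earlier results of these data known. Values in every library are given for the 3 most abundant and the 3 most changed members of each phase in WT, for members called between genotypes or for the interaction, and for members that fell or were not called after UIR. Of the other lists, genes among the 4 smallest p-values of a list in a comparison are named. At least 10% of the exon bases (11.1% to 29.3%) lie opposite another gene in Kif20a, Ccnd1, Ube2c, Cdk4, Ccne2, Cdc25c, Ccna2 and Prc1. Alternatives were other scalings and filters, DESeq2 1.42.0, limma 3.58.1 on log2 FPKM or TPM, fewer groups in the fit, a replicate block and each library left out. Figures and tables were made with Python 3.11.15.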

Additional observations from a re-analysis of the deposited data

Results flagged for a closer look

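The UIR effect differed between the genotypes in 5 of the 54 genes by the interaction term of edgeR's quasi-likelihood fit. Of all genes tested, 14.4% had a higher log2 effect in PTCKO and 7.08% a lower one. The log2 UIR effect in PTCKO minus that in WT was -0.77 for Kif23 (-0.765), -0.72 for Cdc25b (-0.7195) and -1.09 for Plk1 (-1.0851). It was 0.73 for Tyms (0.7308) and 0.80 for Tk1 (0.8031). The calls of Cdc25b, Plk1 and Tk1 were lost on leaving out most single libraries.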

How the results depend on the processing

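Over single genes and comparisons, 2422 values kept direction and side of the threshold, 87 lost and 28 gained a call, and 30 changed sign. These cover all 54 genes for UIR against sham. For the genotype comparisons and the interaction they cover only genes called in the fit over all 12 libraries, so calls gained there were not counted. The count of genes called higher after UIR was 46 to 48 in PTCKO and 48 to 49 in WT on leaving out each library. Genes called lower after UIR came to 0 in both genotypes without scaling factors and under each of the 4 limma settings (FPKM + 1, FPKM + 0.1, FPKM + 1 with no filter, TPM + 1). With the limma filter on FPKM, 48 of the 54 genes were tested. Genes higher in PTCKO after UIR numbered 2 with DESeq2 and 0 to 4 on leaving out each library. Genes lower there numbered 1 with DESeq2 size factors, no low-count filter, DESeq2 or only the groups compared, 4 with FPKM + 1 and no filter, 5 with TPM + 1 and 0 to 3 on leaving out each library. After sham, genes higher in PTCKO numbered 4 without scaling factors, 3 with FPKM + 1, 6 with FPKM + 0.1, 9 with TPM + 1 and 0 to 2 on leaving out each library, and genes lower numbered 1 without scaling factors and in all 4 limma settings, and 1 to 3 on leaving out each library. Genes with a higher log2 UIR effect in PTCKO numbered 1 without scaling factors, 4 with DESeq2, 1 with FPKM + 1 and no filter, 0 with TPM + 1 and 1 to 3 on leaving out each library. Those with a lower effect numbered 9 without scaling factors, 7 with FPKM + 1, 7 with FPKM + 0.1, 5 with FPKM + 1 and no filter, 10 with TPM + 1 and 1 to 4 on leaving out each library. The cause of these shifts was not tested. A fit of only the groups compared gives no interaction.

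The values that changed sign concern UIR against sham in 6 genes. In PTCKO, UIR against sham stood at 0.15 for Ccnd3 and 0.44 for Gmnn without scaling factors, at 0.19 and 0.40 with FPKM + 1 (0.1861 and 0.3979, also with no filter), at 0.19 and 0.44 with FPKM + 0.1 (0.189 and 0.4383) and at 0.20 and 0.43 with TPM + 1. In WT these were 0.16 and 0.32 without scaling factors, 0.15 and 0.30 with FPKM + 1 (also with no filter), 0.16 and 0.34 with FPKM + 0.1, and 0.33 and 0.47 with TPM + 1. In WT, Ccnd1 was at 0.0452 and Tyms at 0.15 with TPM + 1, and Tk1 at -0.0186 without WT sham 1. In PTCKO, Tyms was at -0.0073 with DESeq2 size factors, -0.0063 with DESeq2, -0.0684 without PTCKO sham 1 and -0.0523 without PTCKO UIR 3, and -0.0684 to 0.0466 over all libraries left out. E2f2 in PTCKO ran from -0.12 without PTCKO sham 3, over -0.11 without PTCKO UIR 1 and -0.0451 without PTCKO UIR 3, to 0.21 without PTCKO UIR 2.

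The replicate numbers gave no sign of pairing. Deviations of same-numbered libraries correlated at -0.0893 to 0.179, and those of differently numbered libraries at -0.213 to 0.253. With 3 libraries per group this cannot show that same-numbered libraries were handled apart. With the replicate block 1 gene was lower in PTCKO after UIR, since Kif23 missed the threshold (adjusted p = 0.0516), and Plk1 missed it for the interaction (-1.08, adjusted p = 0.0606), where Cdk4 passed it (0.49, adjusted p = 0.0309). Depth limits the genes with a few counts per sham library, such as Ccne1, Cdc6, Cdc25c and Bub1.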
